A study of Mus musculus with 2 samples.

Results

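The genes described here are 10 genes of bone morphogenetic protein (BMP) and transforming growth factor beta (TGFβ) signalling, most of them feedback or target genes. They were taken as the rows of both count matrices with the symbols Id1, Id2, Id3, Id4, Bambi, Smad2, Smad6, Smad7, Smurf2 and Ltbp3. All 10 were found among the 31054 genes of the matrices. They were followed in dissociated pancreatic islets from 12-week-old male mice labelled C57Bl6, in 1 single-cell RNA library labelled Tg7 and 1 labelled Wild-type. Tg7 mice overexpress the microRNA miR-7a2 in pancreatic β-cells and become diabetic as these cells lose their identity. The Wild-type library came from littermates, and per the study the islet cells of both genotypes carried an insulin-Cre with a Rosa26 tdTomato reporter. How many mice gave each library is not stated in the labels or methods used here, so a genotype and its library cannot be told apart, no test between them was possible, and every interval given covers counting error only.

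BMP and TGFβ ligands bind pairs of serine/threonine kinase receptors, which phosphorylate receptor Smad proteins that enter the nucleus with Smad4. Id1 to Id4 are classic BMP targets, and their proteins lack a DNA-binding region and hold back basic helix-loop-helix factors such as Neurod1 and Neurog3 by binding their E-protein partners. Bambi is a decoy receptor, Smad6 and Smad7 are inhibitory Smads, Smurf2 is a ubiquitin ligase that removes Smads and receptors, Smad2 carries the TGFβ and activin signal, and Ltbp3 holds latent TGFβ in the matrix.

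Of the genes with a position taken from RefSeq (GRCm38.p6, the build that mm10 denotes), Id1 lies at chr2:152736251-152737410, Id2 at chr12:25093799-25096092, Id3 at chr4:136143822-136145392 and Id4 at chr13:48261116-48266028. Smad6 lies at chr9:63953076-64022085, Smurf2 at chr11:106820061-106920747 and Ltbp3 at chr19:5740900-5758536.

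The microRNA that the Tg7 mice overexpress in β-cells is shown with its seed, bases 2 to 8, in capitals, since a match to the seed in a 3′ UTR is what is searched for in a possible direct target. It is encoded at chr7:78888295-78888317 on the plus strand (GRCm38.p6, RefSeq).
miR-7a-5p: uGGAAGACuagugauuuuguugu
The matching DNA letters GTCTTCC were found in the longest 3′ UTR of 0 of the 10 genes, against 2241 of 20007 genes (11.2%) with a 3′ UTR in GENCODE vM1. That annotation is of an older mouse build, so only the letters were used.

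Promoter sequence is shown for Id3 and Id2, whose level differed between the libraries in insulin cells, and for Smad6. Letters known as Smad binding elements are in capitals. Each window runs from 250 bases before the RefSeq start site to 50 after it (GRCm38.p6), and usable entries were matched for 6 of the 10 genes. Id1, with 12 UMIs in Tg7 and 0 in Wild-type insulin cells, was not among them. The Id3 window is chr4:136143572-136143871 on the plus strand, with CAGAC or its reverse GTCTG in capitals, and the Id2 window chr12:25096043-25096342 on the minus strand, with GGCGCC in capitals. Of Smad6, at chr9:64022010-64022309 on the minus strand, the stretch around GTCTAGAC is printed.
Id3: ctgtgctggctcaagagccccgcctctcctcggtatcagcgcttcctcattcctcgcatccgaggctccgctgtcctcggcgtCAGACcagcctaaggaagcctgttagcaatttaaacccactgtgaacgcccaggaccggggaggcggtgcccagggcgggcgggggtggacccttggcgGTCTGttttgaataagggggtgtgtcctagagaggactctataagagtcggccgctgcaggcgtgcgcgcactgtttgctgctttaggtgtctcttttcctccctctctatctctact
Id2: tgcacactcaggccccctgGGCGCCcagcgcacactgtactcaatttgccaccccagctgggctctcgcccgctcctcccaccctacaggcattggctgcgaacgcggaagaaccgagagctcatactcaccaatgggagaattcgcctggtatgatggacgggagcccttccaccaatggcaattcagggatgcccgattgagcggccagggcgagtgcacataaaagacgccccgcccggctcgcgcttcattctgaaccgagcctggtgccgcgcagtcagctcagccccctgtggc
Smad6: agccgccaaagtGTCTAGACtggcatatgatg
All 3 motifs were searched on both strands, and none of them contains another. GTCTAGAC was present in 0.213% of the 32851 promoters in the table, and in Smad6 it began 4 bases before the start site used for the window. For Smad6 and Smurf2 the start site of the window lies inside the gene extent given above, and in Smad6 this motif does too. GGCGCC was present in 11.9% of promoters. It began 231 bases before the start site of Id2 and 148 bases before that of Id4, and it occurred at 2 places in Smurf2, where 2.04% of promoters held 2 or more. CAGAC or GTCTG was present in 49.6% of promoters, and 16.2% held 2 or more matches. Id3, Smurf2 and Ltbp3 each held 2, which in Id3 began 167 and 68 bases before the start.

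UMIs (counted molecules) summed to 29931777 over 1123 barcodes of the Tg7 library and to 30829078 over 855 barcodes of the Wild-type one, with 0 barcodes in common. After filters, 992 and 744 cells were kept, with medians of 24268.5 and 39571.5 UMIs per cell. No cell annotation was used, so classes were set by hormone share. Insulin cells had 5% or more of their UMIs from Ins1 and Ins2 and no other hormone past its own threshold, and numbered 554 in Tg7 and 478 in Wild-type. Gcg cells numbered 171 and 137, Sst cells 18 and 26, and Ppy cells 17 and 10. In Tg7, 87 cells lay within 2-fold of the Gcg threshold against 9 in Wild-type, and 45 against 4 lay within 2-fold of the insulin threshold. Endothelial-like cells, without a hormone past its threshold and with at least 4 of 10 endothelial markers, numbered 9 and 23, and each held at least 7 of the markers. Of these, 3 Tg7 and 6 Wild-type cells also held 3 or more stellate cell or pericyte markers. Levels are given as CPM, the UMIs of a gene per 1000000 UMIs of genes other than the 7 islet hormone genes, because hormones made up 43.1% of UMIs in Tg7 and 63.2% in Wild-type. On this scale the median gene in insulin cells differed by -0.025 (log2) between the libraries, and scaled to all UMIs by 0.79.

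In insulin cells, Id3 and Bambi were past 2-fold higher in the Tg7 library, and Id2, Id4, Ltbp3 and Smad7 were also above Wild-type without reaching 2-fold. Smad2 and Smurf2 lay below Wild-type. Of the 8 members that reached 20 UMIs summed over the libraries, 2 were past 2-fold higher, where 9.86% of the 12650 genes measured were, and 0 were past 2-fold lower, where 5.96% of all genes were. The median member ratio was 0.87 on the log2 scale, against -0.025 for all genes.

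**Figure D1:**
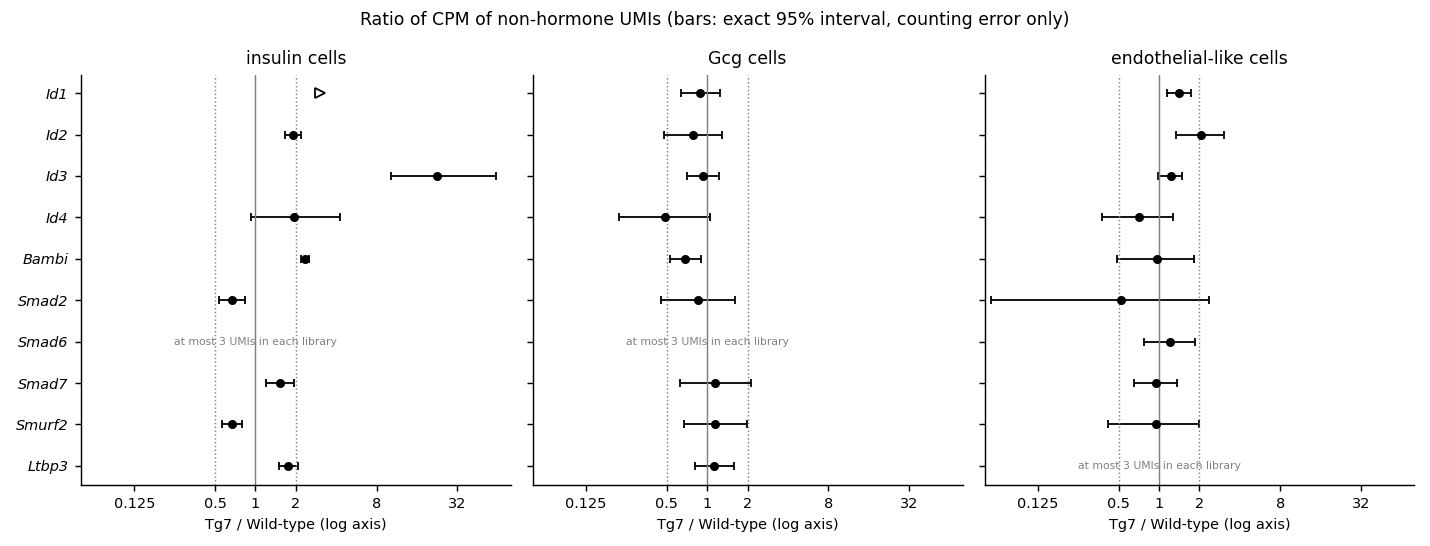
Ratio of the Tg7 to the Wild-type level (x axis, log scale) of each of the 10 genes in insulin, Gcg and endothelial-like cells, with points for the ratio of summed UMIs in CPM and bars for the exact 95% interval from counting error. The open triangle is a lower bound against 0 UMIs, the dotted lines mark 2-fold, and Id3 at 22.7 stands far to the right in insulin cells but at 0.935 in Gcg cells.

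Id3, an inhibitor of basic helix-loop-helix factors that answers to BMP signals, had 179 UMIs in the Tg7 insulin cells and 6 in the Wild-type insulin cells. In Tg7 its level was 16.6 CPM (95% interval 14.3 to 19.2), against 0.733 (0.269 to 1.60) in Wild-type, a ratio of 22.7 (10.2 to 62.6). The Wild-type UMIs lay in 6 of 478 cells (1.26%), 1 UMI in each. In Tg7 they lay in 108 of 554 cells (19.5%), with at most 6 UMIs in a cell, and the 29 cells with the most held at least 50% of them. The level was thus spread over many cells of the Tg7 library and close to nothing in the Wild-type cells.

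Cells were also compared at equal depth, each thinned at random to 2000 non-hormone UMIs, which left out 13 Tg7 and 4 Wild-type insulin cells and 12 and 2 Gcg cells. Id3 then had a UMI in 25 of 541 Tg7 insulin cells (4.62%, exact binomial interval 3.01 to 6.75) and in 0 of 474 Wild-type insulin cells (interval 0 to 0.775), where 3 cells would make 0.633%. Both limits are for cells with a UMI at this depth. Bambi had a UMI in 40.3% (36.1 to 44.6) of the thinned Tg7 insulin cells and 20.3% (16.7 to 24.2) of the Wild-type ones. In macrophage-like cells, taken as a measure of background for Bambi, 1 of 23 Tg7 and 1 of 8 Wild-type cells had a UMI at median depths of 4702 and 7474.5 non-hormone UMIs, against 15301.5 and 14602 in insulin cells. For Id2, Ltbp3, Smad7, Smad2 and Smurf2 the intervals of the shares overlapped at 2000 UMIs. At 5000 UMIs, which left out 22 and 10 insulin cells, they were apart for 3 of these genes. The share of insulin cells with an Id2 UMI was then 26.1% (22.4 to 30.1) in Tg7, against 15.0% (11.8 to 18.5) in Wild-type. The same shares were, for Ltbp3, 17.7% (14.5 to 21.2) and 10.3% (7.66 to 13.4), and for Smurf2, 11.3% (8.72 to 14.3) and 17.7% (14.4 to 21.5). The intervals still overlapped for Smad7, at 9.96% (7.55 to 12.8) and 5.98% (4.01 to 8.53), and for Smad2, at 8.27% (6.07 to 10.9) and 13.0% (10.1 to 16.4). Id3 was seen in 7.89% (5.75 to 10.5) and 0% (0 to 0.785) at this depth, and Bambi in 64.3% (60.0 to 68.4) and 37.2% (32.8 to 41.7).

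**Figure D2:**
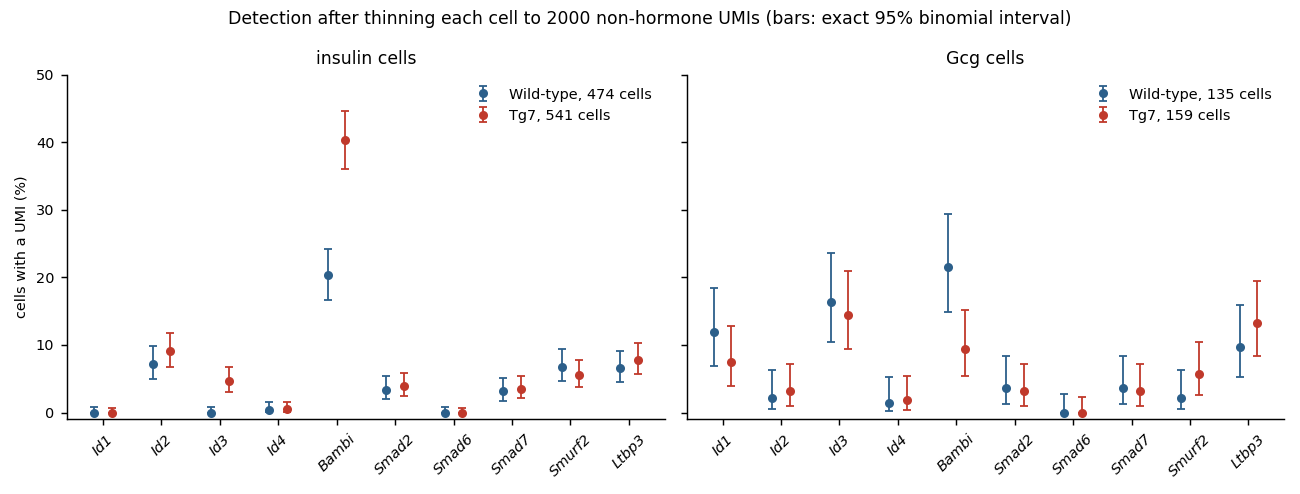
Percent of cells with a UMI of each gene (y axis) after thinning each cell to 2000 non-hormone UMIs, in insulin cells (left) and Gcg cells (right), with points for the share in each library and bars for the exact 95% binomial interval. Bambi is on opposite sides in the insulin cells (40.3% in Tg7, 20.3% in Wild-type) and the Gcg cells (9.43% and 21.5%, with intervals that just meet), and Id3 is seen in 4.62% of Tg7 insulin cells and 0% of Wild-type ones.

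Bambi, a pseudoreceptor without a kinase domain that lowers BMP and TGFβ signalling, had 2988 UMIs in the Tg7 and 968 in the Wild-type insulin cells. Its level was 277 CPM (267 to 287) against 118 (111 to 126), a ratio of 2.34 (2.18 to 2.52). Unthinned, 87.7% of the Tg7 and 71.3% of the Wild-type insulin cells had a UMI. Unlike Id3, Bambi was thus present in most insulin cells of both libraries, at a higher level in Tg7.

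The level of Id2 in insulin cells was 62.2 CPM (57.6 to 67.1) in Tg7, against 32.6 (28.8 to 36.8) in Wild-type, a ratio of 1.91 (1.65 to 2.20). Id2 had a UMI in 55.1% of the Tg7 and 36.6% of the Wild-type insulin cells. Id4 was scarce, with 28 UMIs in 26 Tg7 cells and 11 in 9 Wild-type cells, and its ratio of 1.93 had an interval (0.933 to 4.30) that included 1. Id1 had 12 UMIs in 10 Tg7 insulin cells and 0 in the Wild-type ones, and taking 3 UMIs over the class as the floor puts it at least 3.04-fold higher. Insulin cells therefore held Id2 in both libraries, Id3 nearly only in Tg7, and little or no Id1 and Id4.

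Smad7, an inhibitory Smad that blocks activated TGFβ receptors, had a level of 19.6 CPM in Tg7 and 12.8 in Wild-type insulin cells, a ratio of 1.53 (1.20 to 1.95). Ltbp3 had a level of 46.3 against 26.3, a ratio of 1.76 (1.5 to 2.08), or 1.42 from the mean over cells in place of the sum. Smad2 was at 14.8 CPM in Tg7 and 22.1 in Wild-type, a ratio of 0.667 (0.536 to 0.830), and Smurf2 at 22.3 and 33.2, a ratio of 0.670 (0.561 to 0.80). Scaled to all UMIs, which multiplies every ratio in insulin cells by 1.76, Smad2 and Smurf2 were instead above Wild-type, at 1.17 and 1.18. Smad6, the inhibitory Smad of the BMP branch, had 0 UMIs in the insulin cells of either library, where 3 UMIs would make 0.278 and 0.367 CPM.

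Markers of other cells moved with these values. The sum of 10 endothelial markers in insulin cells was 12.2 CPM in Tg7 and 5.38 in Wild-type. Most of the Tg7 sum was Egfl7 (104 of 131 UMIs, against 13 in Wild-type), whereas Cdh5, Emcn and Tie1 were at 0 in both libraries and Pecam1 had 18 and 19 UMIs. Without the insulin cells holding any endothelial marker UMI, 448 and 436 cells remained and the ratios were 20.5 for Id3, 2.39 for Bambi and 1.84 for Id2. The sum of 9 stellate and pericyte markers was 0.928 CPM in Tg7 and 0.122 in Wild-type, with Col1a1, Dcn, Lum and Pdgfrb at 0 in both. The duct list stood at 443 and 37.0 CPM, nearly all of it Spp1, which was also higher in Tg7 Gcg cells (433 against 72.2). Other lists were lower in Tg7 insulin cells. The macrophage list was at 47.9 CPM against 103 in Wild-type, mostly C1qa (305 and 566 UMIs) and Fcer1g (174 and 193), with Ptprc at 0 in both. The lymphocyte list was at 5.94 and 24.4, all of it Cd79a, with Cd3e and Trbc2 at 0 in both. The acinar list stood at 3.25 and 3.79 CPM and the Schwann list at 6.59 and 9.90. By contrast, the 4 δ-cell markers together were higher in Tg7, at 810 CPM against 532 in Wild-type. Their UMIs in Tg7 and Wild-type were 6704 and 3967 for Sst, 1996 and 366 for Rbp4, 30 and 21 for Hhex and 3 and 1 for Ghsr. The part of these lists in the results was not tested.

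Genes of α-cells moved as well. Irx2, an α-cell factor, had 65 UMIs in 48 insulin cells of Tg7 and 12 in 9 of Wild-type. Since Gcg cells of both libraries express Id3 and Id1, the ratios were also taken without the insulin cells that had a UMI of Irx2, an alternative chosen after seeing the data. In the 506 Tg7 and 469 Wild-type cells that remained, the ratio was 21.4 for Id3, 2.33 for Bambi and 1.93 for Id2, and Id1 was at least 2.85-fold higher. The 5 markers of α-cells together, Gcg included, stood at 10500 CPM in Tg7 and 2870 in Wild-type insulin cells, and the 2 markers of γ-cells, Ppy and Pyy, at 8400 and 892. Their part in the results was not tested.

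**Figure D3:**
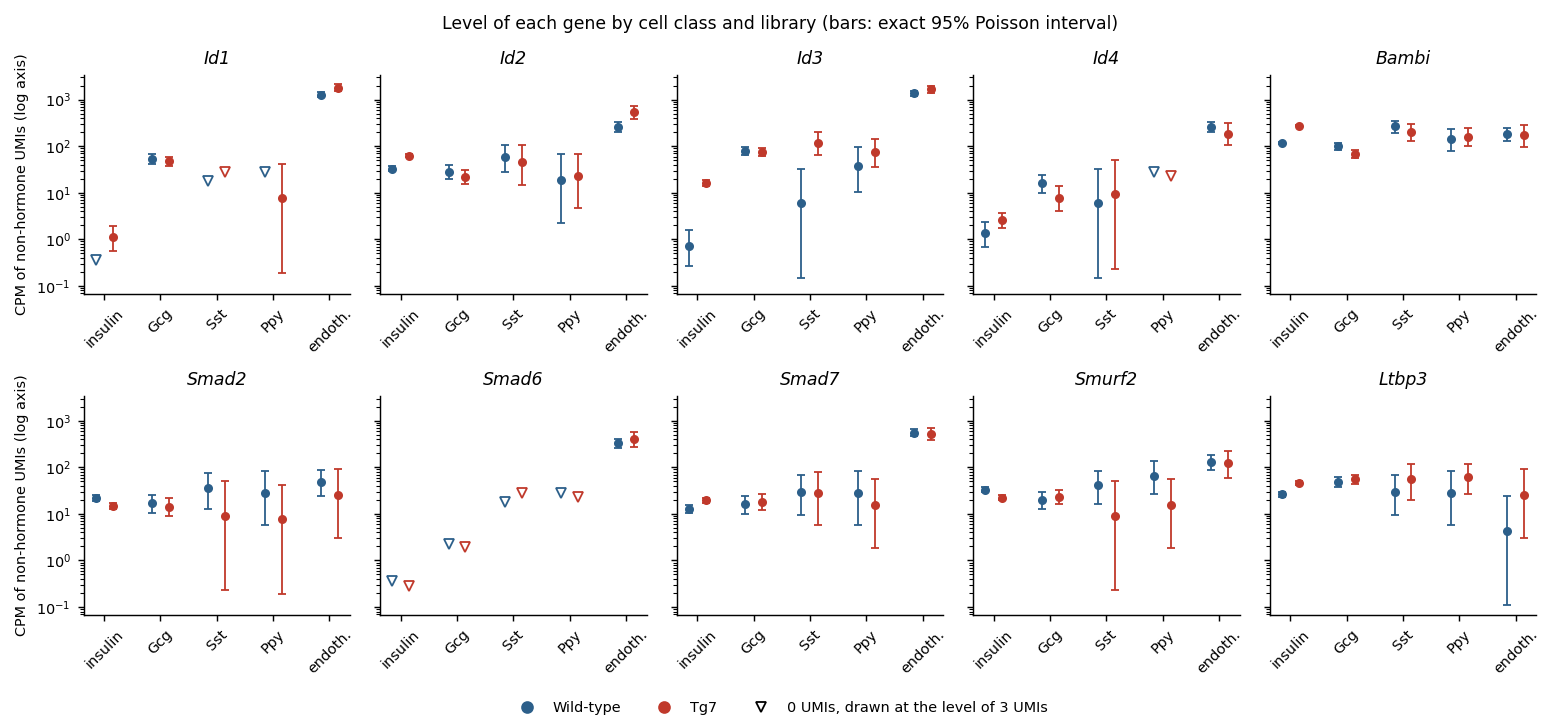
Level of each of the 10 genes in CPM of non-hormone UMIs (y axis, log scale) in 5 cell classes (x axis) of the Wild-type (blue) and Tg7 (red) libraries, with bars for the exact 95% Poisson interval and open triangles at the level of 3 UMIs where a class had 0 UMIs. Id1, Id2, Id3, Id4, Smad2, Smad6, Smad7 and Smurf2 are highest in endothelial-like cells in both libraries. Smad6 has UMIs in that class alone of the 5, and Id3 in insulin cells is at 0.733 in Wild-type and 16.6 in Tg7.

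Levels across cell classes placed the insulin-cell values in context. Of the 5 classes, Id3 was highest in endothelial-like cells, at 1670 CPM in Tg7 and 1370 in Wild-type. In Wild-type it was followed by Gcg cells at 79.9 (65.3 to 96.8), Ppy cells at 37.8 (10.3 to 96.9), Sst cells at 5.92 (0.150 to 33.0) and insulin cells at 0.733, and the intervals of neighbours among these 4 overlapped. In Tg7, Sst cells stood at 120 (63.8 to 205), Ppy cells at 76.1 (36.5 to 140) and Gcg cells at 74.7 (61.6 to 89.7), whose intervals overlapped, and insulin cells came last at 16.6 (14.3 to 19.2), below the intervals of the other 3. Outside the endocrine and endothelial-like cells, the 5 and 6 stellate-like cells held 2880 and 5200 CPM.

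In Gcg cells, Id3 and Id1 were at about the same level in both libraries. Id3 had 114 UMIs in 46 Tg7 cells and 104 in 51 Wild-type cells, a ratio of 0.935 (0.710 to 1.23). Id1 had 73 and 70 UMIs, a ratio of 0.890 (0.632 to 1.25). Bambi went the other way from insulin cells, with 68.8 CPM (56.3 to 83.3) in Tg7 against 101 (84.1 to 119) in Wild-type, a ratio of 0.684 (0.524 to 0.891). Thinned to equal depth, 9.43% (5.38 to 15.1) of the Tg7 and 21.5% (14.9 to 29.4) of the Wild-type Gcg cells had a Bambi UMI, against 36.8% and 56.2% unthinned. Of the 9 members that reached 20 UMIs, 0 were past 2-fold higher, where 2.5% of the 8996 genes measured were, and 1 was past 2-fold lower, where 3.4% of genes were. That gene was Id4, with 12 and 21 UMIs and an interval (0.219 to 1.04) that included 1. Smad7, Smurf2, Ltbp3, Smad2 and Id2 had intervals that included 1, and Smad6 had 0 UMIs in the Gcg cells of both libraries.

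Sst and Ppy cells were few. Id3 had 13 UMIs in 3 of the 18 Sst cells of Tg7 and 1 UMI in the 26 of Wild-type, a ratio of 20.2 (3.04 to 860), but 8 of the 13 lay in 1 cell. Without the cell holding the most UMIs in each library it was at least 2.85-fold higher, and with hormone thresholds 2 times as high the ratio was 2.80. In Ppy cells Id3 had 10 and 4 UMIs, a ratio of 2.01 (0.580 to 8.78), which became 0.775 with the higher thresholds. Bambi was at 203 and 266 CPM in Sst cells and 160 and 142 in Ppy cells, with intervals of the ratio that included 1 in both. Id3 in Sst cells was thus above Wild-type in each of these values, which rest on 3 Tg7 cells with a UMI in 18, while in Ppy cells it changed side with the thresholds.

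Endothelial-like cells had the highest level of the 5 classes, in both libraries, for Id1, Id2, Id3, Id4, Smad2, Smad6, Smad7 and Smurf2. Id4 stood there at 187 (105 to 309) CPM in Tg7 and 263 (201 to 339) in Wild-type. Smurf2 stood at 125 (59.8 to 229) and 132 (88.8 to 188), while Smad2 rested on 2 and 11 UMIs. For Smurf2 and Smad2 the Wild-type intervals overlapped those of other classes. Id1, which answers to BMP signals in endothelium, had a UMI in 8 of the 9 cells of Tg7 and 21 of the 23 of Wild-type. Over single Tg7 cells its level ran from 0 to 3060 CPM with a median of 1350. Over single Wild-type cells it ran from 0 to 3050 with a median of 1090, so the cells of the libraries overlapped. Summed, Id1 stood at 1800 and 1270 CPM, a ratio of 1.41 (1.15 to 1.73), but 54 of its 144 Tg7 UMIs lay in 1 cell. Smad6 was at 399 (273 to 564) and 329 (259 to 413) CPM and Smad7 at 524 (378 to 708) and 553 (461 to 659). Apart from 1 UMI in a Tg7 macrophage-like cell, no named class other than endothelial-like cells had a Smad6 UMI in either library.

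Id2 was past 2-fold higher in Tg7 endothelial-like cells, at 536 (388 to 723) against 263 (201 to 339) CPM, a ratio of 2.04 (1.34 to 3.06). It was the 1 of 8 measured members past that fold, where 4.15% of the 2918 genes measured were, and 0 members were past 2-fold lower, where 7.92% of genes were. With the cells that also held 3 or more stellate markers left out, chosen after seeing the data, 6 and 17 cells remained and the Id2 ratio was 1.74, under 2-fold. In the same cells the ratio of Id3 went from 1.22 to 1.68, that of Smad7 from 0.947 to 0.623, that of Bambi from 0.971 to 0.252 and that of Smurf2 from 0.947 to 2.09. Ltbp3 was close to absent from this class, with 2 and 1 UMIs, although it was found in all 4 hormone classes.

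Id2 had a further high class. Macrophage-like cells, 23 in Tg7 and 8 in Wild-type, held Id2 at 942 (773 to 1140) and 975 (740 to 1260) CPM, above the endothelial-like cells of both libraries. Id3 in these cells was at 227 (148 to 332) in Tg7 against 33.6 (4.07 to 121) in Wild-type, which rested on 2 UMIs.

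Within the Tg7 insulin cells, Id3 varied with the share of Ins1 among insulin UMIs. Cells were ordered by Ins1 as a share of all insulin UMIs, which in the lowest group was at most 3.39% and in the highest at least 7.04%. Id3 stood at 24.7 CPM (19.3 to 31.1) in the lowest group, 12.6 (9.47 to 16.4) in the middle and 14.8 (11.1 to 19.4) in the highest. Bambi stood at 281, 277 and 274 CPM, and Id2 at 62.4, 69.1 and 53.7. The cells with the lowest Ins1 share thus held the most Id3, although their interval just met that of the highest group, while Bambi was level across these groups. Grouped instead by insulin as a share of all UMIs, Id3 stood at 20.5 (16.4 to 25.4), 14.0 (10.6 to 18.2) and 14.6 (10.4 to 19.9) CPM. These run from the lowest to the highest share, and the intervals overlapped. Bambi stood at 261 (246 to 277), 273 (257 to 290) and 308 (287 to 329) CPM in the same order. Depth moved with Id3 too, since cells grouped by non-hormone UMIs gave 22.2, 23.9 and 11.9 CPM from the shallowest to the deepest. The part of depth in the difference was not tested.

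**Figure D4:**
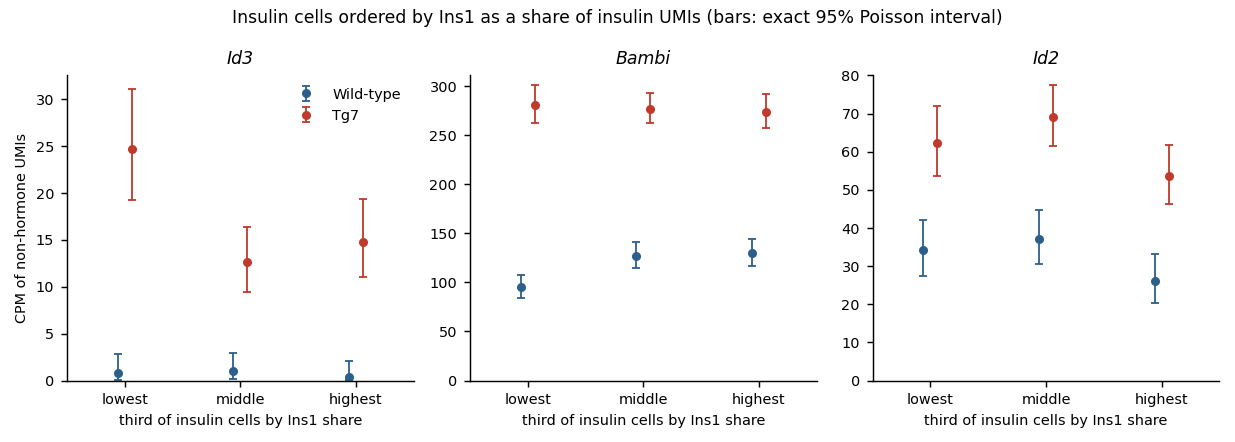
Level of Id3, Bambi and Id2 in CPM of non-hormone UMIs (y axis) in insulin cells split into 3 groups by Ins1 as a share of insulin UMIs (x axis, lowest to highest), for Wild-type (blue) and Tg7 (red), with bars for the exact 95% Poisson interval. In Tg7, Id3 is highest where the Ins1 share is lowest (24.7 against 12.6 and 14.8), Bambi is level near 277, and each Wild-type point lies under the Tg7 points of its gene.

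In Wild-type insulin cells, Id3 had 2, 3 and 1 UMIs in the 3 groups by Ins1 share. Bambi there was at 95.7 (84.1 to 108) CPM in the group with the lowest Ins1 share and at 127 and 130 in the others. Of the 25 thinned Tg7 insulin cells with an Id3 UMI, 7 (28.0%) also had one of Id2, against 8.14% of the 516 without Id3, whereas Bambi was seen in 36.0% and 40.5%. These shares rest on few cells of 1 library.

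Cells with more than 1 hormone past its threshold numbered 173 in Tg7 and 49 in Wild-type. The 53 Tg7 cells with insulin and Gcg alone held Id3 at 43.3 CPM (32.7 to 56.2) and Id1 at 10.1 (5.35 to 17.2), between the insulin and the Gcg cells of that library for both genes. The 42 Tg7 cells with insulin and Sst alone held Id3 at 17.4 (9.96 to 28.3) and the 25 with insulin and Ppy alone at 17.6 (8.05 to 33.4), about the level of Tg7 insulin cells. Bambi ran from 195 to 217 CPM in these 3 kinds of cell, under the 277 of Tg7 insulin cells. Over all cells with several hormones, the ratio of Tg7 to Wild-type was 1.06 (0.894 to 1.27) for Bambi and 0.926 (0.688 to 1.26) for Id2. For Id3 it was 0.658 (0.457 to 0.964). The mix of hormones differed, since 53 Tg7 cells but 1 Wild-type cell had insulin and Gcg alone. Scrublet calls had been removed, but cells that stuck together before capture could remain among the cells with several hormones.

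The other genes of the pathway were read from lists of 87 genes. In insulin cells 51 had at least 20 UMIs, of which 13 were past 2-fold higher and 6 past 2-fold lower, with a median log2 ratio of 0.05. Of all genes measured in insulin cells, 9.86% were past 2-fold higher and 5.96% lower. In Gcg cells 31 were measured, with 1 higher and 4 lower, where 2.5% and 3.4% of all genes were.

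**Figure D5:**
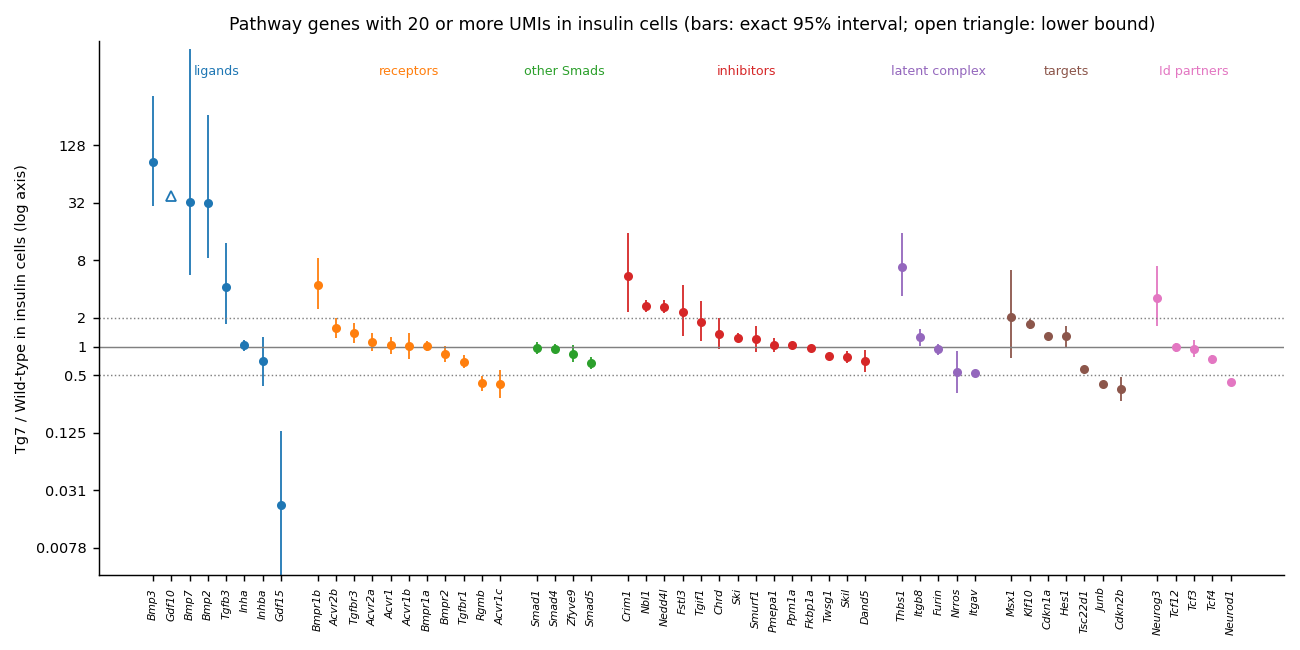
Ratio of the Tg7 to the Wild-type level in insulin cells (y axis, log scale) of pathway genes and Id partners with at least 20 UMIs, apart from a few not reported here, grouped by role, with bars for the exact 95% interval and an open triangle for the lower bound of Gdf10, which had 0 UMIs in Wild-type. Ligands spread widest, from Bmp3 at 86.8 to Gdf15 at 0.0217 (whose interval runs below the axis), while the other Smads stay between the dotted 2-fold lines.

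Of the ligands, 8 of 18 were measured, with 5 past 2-fold higher, where 9.86% of all genes were, and 1 lower, where 5.96% were. Bmp3, a BMP that opposes the activity of other BMPs, had 343 UMIs in 228 Tg7 insulin cells and 3 UMIs in Wild-type, a ratio of 86.8 (29.5 to 423). Gdf10, also called Bmp3b, had 149 UMIs in 106 Tg7 cells and 0 in Wild-type, at least 37.7-fold higher. Bmp7, an activating BMP, had 43 UMIs and 1 UMI, a ratio of 32.7 (5.56 to 1320). The other two, named after their values were seen, were Bmp2 with 84 and 2 UMIs (31.9, 8.56 to 268) and Tgfb3 with 33 and 6 (4.18, 1.73 to 12.2). Gdf15, a stress-induced member of the family, had 1 UMI in Tg7 and 35 in 23 Wild-type cells, a ratio of 0.0217 (0.000534 to 0.129). In Gcg cells Bmp3 had 3 and 0 UMIs, and Bmp2 18 and 6, a ratio of 2.56 whose interval (0.973 to 7.87) included 1. Bmp3 was also higher in the few Sst cells of Tg7, at 101 against 23.7 CPM. That ratio of 4.28 (1.27 to 18.4) rested on 11 UMIs in 6 Tg7 cells and 4 in 3 Wild-type cells.

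Of the receptors, 11 of 15 were measured, with 1 past 2-fold higher and 2 lower (9.86% and 5.96% of all genes). Bmpr1b, a type I BMP receptor, had 81 UMIs in the insulin cells of Tg7 against 14 in those of Wild-type, a ratio of 4.39 (2.47 to 8.39). Rgmb, a BMP co-receptor, had a ratio of 0.413 (0.344 to 0.495) and Acvr1c, an activin and Nodal receptor, of 0.407 (0.286 to 0.573). Bmpr1a, a further type I BMP receptor, was at 66.9 and 66.2 CPM. None of the 4 other Smads and partners measured (of 8) was past 2-fold.

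Inhibitors were past 2-fold higher in 5 of 15 measured (of 22) and lower in 0, against 9.86% and 5.96% of all genes. Crim1, which binds BMPs at the cell surface, had 43 and 6 UMIs, a ratio of 5.44 (2.31 to 15.6). Nbl1, a secreted BMP antagonist, stood at 83.6 and 31.3 CPM, a ratio of 2.67 (2.32 to 3.08), and had a UMI in 67.9% of Tg7 and 36.0% of Wild-type insulin cells. Also past 2-fold, and named after their values were seen, were the ubiquitin ligase Nedd4l (2.61, 2.23 to 3.05) and the activin binding protein Fstl3 (2.33, 1.30 to 4.38). Of the latent TGFβ complex 5 of 10 were measured, and Thbs1, an activator of latent TGFβ, was the 1 past 2-fold, with 80 and 9 UMIs (6.75, 3.38 to 15.3).

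Other targets of the pathway lay on both sides of Wild-type. Of 14, 8 were measured, with 1 past 2-fold higher and 3 lower, beside 9.86% and 5.96% of all genes. Msx1, a BMP target, had 16 and 6 UMIs, a ratio of 2.02 whose interval (0.753 to 6.32) included 1. Junb, a growth factor-induced transcription factor, was at 0.406 (0.387 to 0.426) and the cell cycle inhibitor Cdkn2b at 0.357 (0.266 to 0.476). Both were below Wild-type in Gcg cells too, at 0.643 (0.582 to 0.711) and 0.487 (0.282 to 0.824).

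Among the partners of Id proteins, the E proteins Tcf12, Tcf3 and Tcf4 had ratios of 0.980 (0.878 to 1.10), 0.95 (0.779 to 1.16) and 0.732 (0.655 to 0.819) in insulin cells. Neurog3, the endocrine progenitor factor, had 47 and 11 UMIs, a ratio of 3.24 (1.66 to 6.94). Neurod1, which acts on the insulin genes, was at 149 and 349 CPM, a ratio of 0.428 (0.402 to 0.455), and 0.879 (0.730 to 1.06) in Gcg cells.

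Genes with the pattern most like 4 of the members were sought over 10 profiles, the 5 classes in each library, among 10682 genes. For Id1 they were Adamts9 (Pearson r = 0.979), Cav1 (0.968) and Igfbp4 (0.954). For Id3 they were Epb41l2 (0.968), 1700025G04Rik (0.914) and Lamc1 (0.912). For Id2 they were Ywhab (0.980), Klf9 (0.978) and Serbp1 (0.969), and for Bambi Laptm4a (0.906), Nek7 (0.849) and Zfp438 (0.848). The profiles of a library share its depth, and those of small classes rest on few UMIs, so these correlations are a description.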

How the data were processed

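Islet cells of 1 Tg7 and 1 Wild-type library (10x Genomics) were analysed. Per the labels and the methods of the study, the authors processed reads with bcl2fastq 2.17.1.14 and Cell Ranger 3.0.2 (STAR) against mm10 and deposited UMI counts per gene and barcode, without normalization. Which gene annotation was counted is not stated there.

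Kept barcodes had 1000 or more UMIs and no more than 20% from mitochondrial genes, and Scrublet calls (scanpy 1.11.5, expected rate 0.8% per 1000 barcodes; 14 in Tg7 and 11 in Wild-type) were removed. Thresholds were 5% of UMIs for insulin, Gcg and Ppy and 1% for Sst. Counts were summed per class. Ratios carry the conditional exact binomial interval, levels the exact Poisson and shares the Clopper-Pearson interval (scipy 1.17.1, 95%). With 1 library per group, a gene counted as past 2-fold in place of a test, given at least 20 UMIs over both libraries. The ratio was tested on simulated data. Depth per library was 29931777 (Tg7) and 30829078 (Wild-type) UMIs.

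Named pathway genes were, per list, up to 3 highest and 3 lowest past 2-fold in insulin cells, and every Id partner with at least 20 UMIs. The likeness search used log2(level + 1) and genes with at least 100 UMIs. The members and lists were chosen with earlier results of these data known. Alternatives covered scaling (all UMIs, and TMM factors from edgeR 4.0.16), barcode filters, thresholds, doublets, depth, left-out cells, fold and count minimum. Sequence and position of Bambi, Smad2 and Smad7, and some genes that the naming rule or a list's count includes, are not reported here.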

Additional observations from a re-analysis of the deposited data

Results flagged for a closer look

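Bambi differed between the libraries in opposite directions in insulin and Gcg cells. The ratio of Tg7 to Wild-type was 2.34 (2.18 to 2.52) in insulin cells and 0.684 (0.524 to 0.891) in Gcg cells, with 1 library per genotype. The difference between the classes was not tested.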

How the results depend on the processing

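No paired analysis was possible because each group had 1 library and the labels carry no replicate numbers, and for the same reason no replicate could be left out. Scaled to all UMIs, which moves the median gene in insulin cells to 0.79 (log2), 6 members were past 2-fold higher, and of the pathway genes 23 were higher and 2 lower, where 34.0% and 1.93% of all genes were. With a fold of 1.5, 6 members were higher and 0 lower, where 17.1% and 13.8% of all genes were. With a minimum of 100 UMIs, 5 of the 38 pathway genes measured were higher and 4 lower, where 5.78% and 5.08% of all genes were. Thresholds 2 times as high turned Smad2 in Sst cells to 1.16 and Id3 in Ppy cells to 0.775; the cause was not tested.

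Over the 13 settings run, the insulin-cell ratio ran from 17.6 to 39.8 for Id3, 2.15 to 4.12 for Bambi, 1.82 to 3.35 for Id2, 1.42 to 3.10 for Ltbp3 and 1.37 to 2.68 for Smad7, while Smad2 (0.615 to 1.17) and Smurf2 (0.613 to 1.18) crossed 1 when scaled to all UMIs. TMM factors moved no ratio of a member outside its interval in any of the 5 classes.

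The Sst, Ppy and endothelial-like values rest on classes of 9 to 26 cells.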
